A study of Mus musculus with 27 samples.

Results

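Conjugating enzymes, carboxylesterases and aldehyde dehydrogenases were followed in mouse intestinal epithelium and intestinal adenomas. The set holds every gene whose symbol begins with Gsta, Gstm, Gstk, Gsto, Gstt, Gstz, Ugt, Sult, Ces or Aldh followed by a number, except Aldh1a1. By this rule 72 of the 17687 genes listed in the 2 deposited tables were members: 18 glutathione transferases, 11 UDP-glucuronosyltransferases, 9 sulfotransferases, 15 carboxylesterases and 19 aldehyde dehydrogenases. All 72 were in the table with the transgene and 68 in the table with the knockout, and 66 passed the filter on low values in each (at least 1 CPM in 3 libraries, or 1 nCPM in 5). Ces2f, Sult5a1 and the pseudogene Ces2d-ps were tested in neither table, Aldh3b3, Ces1b and Ces1c in the knockout table alone, and Aldh1l2, Aldh3a1 and Sult6b1 in the transgene table alone.

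These enzymes handle dietary, microbial and drug-like compounds as well as the cell's own lipids, hormones and reactive aldehydes. Carboxylesterases cleave esters and thereby expose hydroxyl or acid groups. UDP-glucuronosyltransferases in the endoplasmic reticulum attach glucuronic acid, cytosolic sulfotransferases attach sulfate from the donor PAPS, and glutathione transferases attach glutathione to electrophiles. Aldehyde dehydrogenases oxidise aldehydes to acids, among them retinal to retinoic acid, and also serve amino acid and folate metabolism. In the small intestine many of them are most abundant in mature absorptive enterocytes, where they form a first barrier before the liver.

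RNA of 26 libraries in 4 groups was compared. Every genotype carried Vil-CreERT2, a tamoxifen-dependent Cre recombinase under the villin promoter, which is active in intestinal epithelium. Control libraries (3 in the transgene table and 6 others in the knockout table) came from normal tissue of mice given sunflower oil by gavage, and the protocol writes these control mice as Brafmut, so that they carried the allele without its induction. Braf libraries (3 and 5) came from adenomas of BrafV637E/+ mice given 5 mg of tamoxifen on 2 days at 6 weeks of age. BrafV637E is the mouse form of the human BRAF kinase mutation found in serrated tumours. Transgene libraries (3) came from adenomas of Tet-o-Fosl1 mice, for which no Braf mutation is named, that had tamoxifen and, from 1 week later, chow with 2000 mg/kg doxycycline. The labels name no transactivator for this transgene. Knockout libraries (6) came from adenomas of BrafV637E/+ mice with both Fosl1 alleles floxed and given tamoxifen. Gavage on 2 days and the age of 6 weeks were the same in all 4 groups, and the tamoxifen dose of 5 mg in all adenoma groups. The titles call the tissue of the transgene and knockout groups adenoma, while their tissue field names only intestinal epithelium. Fosl1 encodes FRA1, a subunit of the AP-1 transcription factor. Each comparison with control sets tumour against normal tissue, so genotype, treatment and tissue state cannot be told apart there. The transgene mice differed from the controls also in doxycycline and in having no Braf allele named.

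Values of the transgene table are CPM (counts scaled to the library total), and library totals recovered from them were 12412849 to 15447421 reads. Values of the knockout table are normalised counts brought to the same scale, written nCPM. A value below 0.5 normalised counts (0.0793 nCPM) is read as no count. Fosl1 had no read in the 3 controls, 4.15, 4.27 and 5.31 CPM in Braf and 3.62, 3.70 and 3.30 CPM in the transgene libraries, and its level in the knockout table was not analysed here. Markers of enterocytes, which define the labelled tissue, were present in every group, with none of the 15 without a read throughout a group. Their summed level was 34691 to 51977 CPM in the controls of the transgene table, 1400.1 to 4414 CPM in Braf and 2677 to 5267 CPM in the transgene libraries. In the knockout table it was 47359 to 64180.1 nCPM in controls, 1367 to 24091 nCPM in Braf and 2641 to 21842 nCPM in knockout libraries. In these bulk samples fewer cells of a type and less RNA per cell cannot be told apart. The labels do not say which library was made with which of the 2 kits named. The titles number the adenoma libraries by mouse (Braf 8 has no number there) and say nothing of the mice behind the controls, so p-values measure the spread between these libraries.

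Most of the enzymes fell in Braf adenomas. Changes are differences of group means of log2(value + 1), a scale that understates changes of low genes, and were tested with limma and adjusted over all genes tested by the Benjamini-Hochberg method. In the table with the transgene, 43 of 66 members were lower than control and 8 higher at an adjusted p below 0.05, which is 77.3% called, while 51.1% of all 15173 genes were called (18% lower, 33.1% higher). The median log2 change of the members was -2.09, that of all genes 0.27. For 53 members no library of Braf overlapped with control, beside 58.9% of all genes. Setting the 2 members without a read in 1 group at the bound that 3 reads allow left the members' median at -2.09. In the table with the knockout, 40 of 66 were lower and 12 higher, 78.8% called beside 61.6% of all 14806 genes (16.2% lower, 45.3% higher), with a median of -1.15 beside 0.42, and 39 did not overlap with control, beside 43.8% of all genes. The 2 tables share no library of these groups. Of 63 members tested in both, 36 fell in both, which is 83.7% of those lower in the transgene table and 97.3% of those lower in the knockout table. All 8 that rose in the transgene table also rose in the knockout table, 66.7% of the latter's list, and no member had opposite calls. Scaling with TMM, which moved the median of all genes from 0.27 to 0.04 and from 0.42 to 0.01, gave 46 lower and 7 higher members in the transgene table and 48 lower and 9 higher in the knockout table, with 25.2% and 29.7% of all genes lower.

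**Figure D1:**
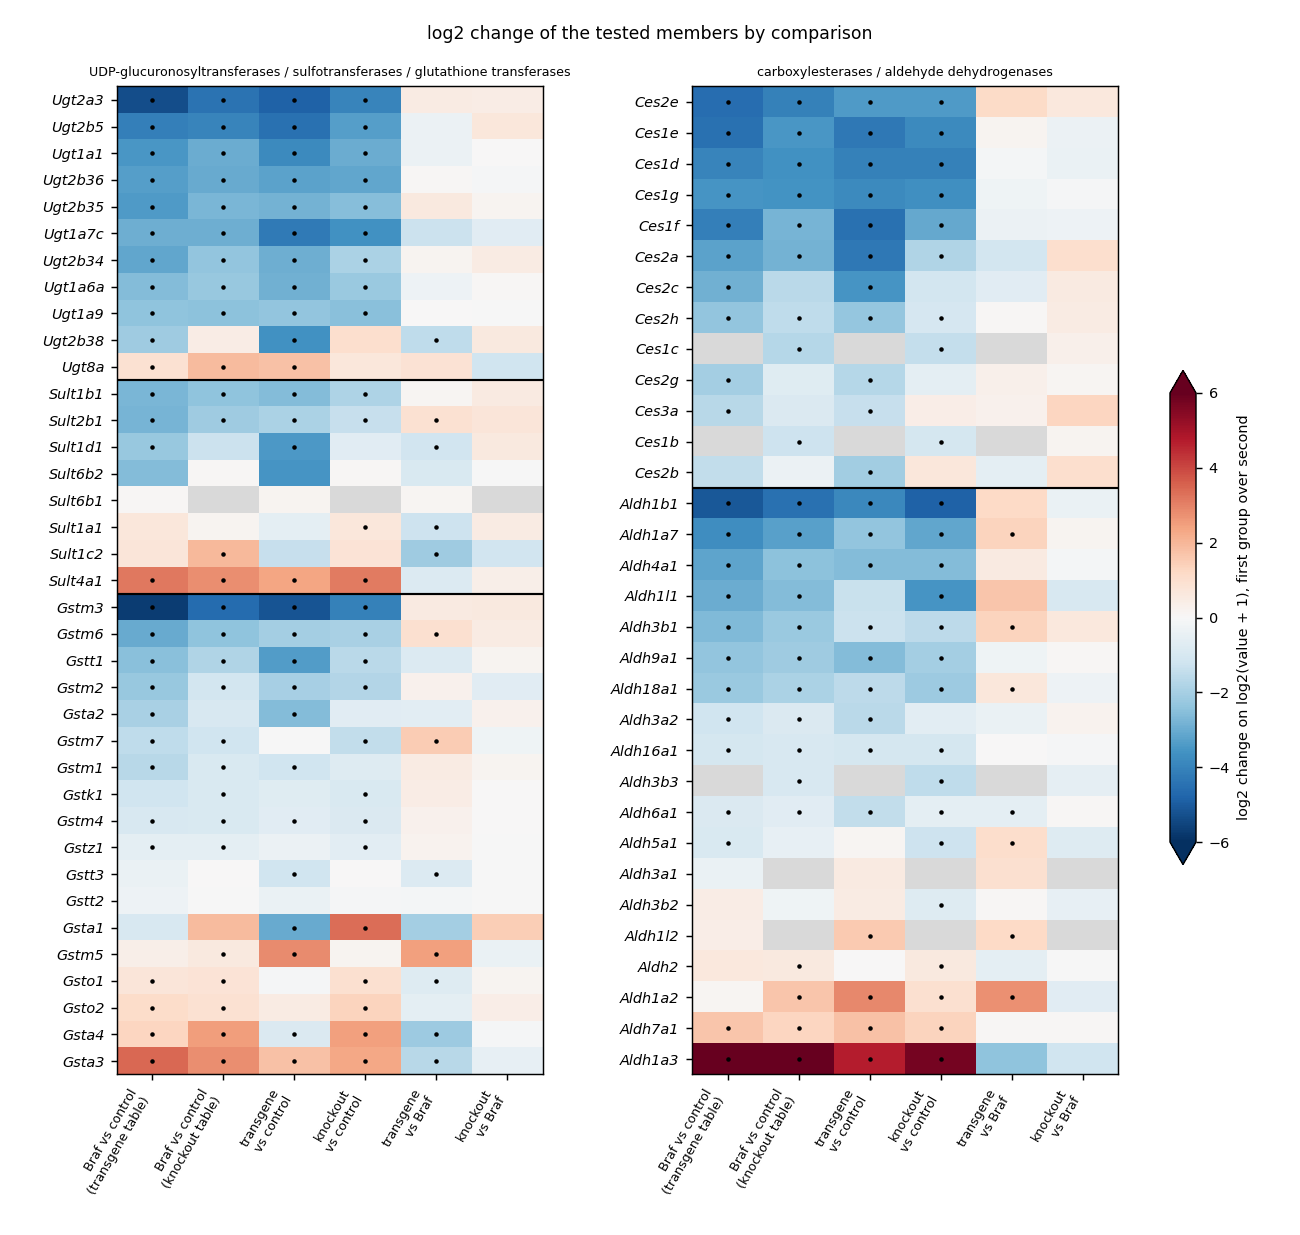
Colour gives the log2 change of each tested member (rows, by class) in 6 comparisons (columns), first group over second, and dots mark an adjusted p below 0.05; grey means not tested. Blue fills most rows of Ugt2, Ugt1a and Ces genes in the 4 comparisons with control, while Aldh1a3, Sult4a1, Gsta3 and Aldh7a1 are red in all 4.

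UDP-glucuronosyltransferases fell almost as a whole class. In Braf adenomas 10 of 11 fell in the transgene table and only Ugt8a rose. Of the 11, 9 fell in the knockout table, where Ugt8a rose and Ugt2b38 was not called. Ugt2b34 had the highest level of the class in control, 165 CPM per kb of exon. It measured 733, 739.8 and 667 CPM in control and 95.4, 91.6 and 61.9 CPM in Braf. Over the knockout table it ranged from 573 to 1032 nCPM (median 819) in control against 256, 80.3, 169, 537 and 48.4 nCPM in Braf. The groups did not overlap in either table, and the log2 changes were -3.11 ± 0.21 (log2 ± SE, adjusted p = 1.31e-06) and -2.37 ± 0.48 (log2 ± SE, adjusted p = 4.41e-04). Ugt2a3, which glucuronidates bile acids in human, showed the largest fall of the class. Its values were 133, 120.0 and 137 CPM in control and 3.09, 1.29 and 2.58 CPM in Braf, a change of -5.34 ± 0.38 (log2 ± SE, adjusted p = 2.29e-06). Controls of the knockout table held 124 to 199 nCPM (median 157) and Braf 8.39, 1.59, 6.99, 46.6 and 1.12 nCPM. The spread among those Braf libraries was wide, with the highest still below every control. Ugt2b5, Ugt2b35 and Ugt2b36 also fell in both tables, with log2 changes of -4.11, -3.41 and -3.29 in the transgene table.

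The 4 Ugt1a members, which lie within 149 kb on chromosome 1 and share their last exons, all fell in both tables. Reads in the shared exons can be counted to any of them or to none, so their separate values are uncertain. Ugt1a1, the enzyme that conjugates bilirubin, measured 19.5, 14 and 9.92 CPM in control and 0.773, 0.242 and 0.0737 CPM in Braf, or -3.49 ± 0.28 (log2 ± SE, adjusted p = 4.71e-06). For Ugt1a1 the knockout table gave 10.4 to 21.3 nCPM (median 17.3) in control and 0.959, 0.164, 1.09, 10.6 and 0 nCPM in Braf, where Braf 7 lay just above the lowest control. Ugt1a7c measured 97.6, 96.3 and 73.3 CPM in control and 21.4, 17.2 and 2.95 CPM in Braf. Ugt1a9 had 5.51, 6.07 and 2.2 CPM in control and no read in any of the 3 Braf libraries, at least 20.5-fold lower against the mean floor of 3 reads per library (0.224 CPM). No control overlapped with a Braf library for Ugt1a7c or Ugt1a9.

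Ugt8a and Ugt2b38 did not follow the class. Ugt8a makes galactosylceramide and is no drug-conjugating enzyme. It had no read in the 3 controls, and Braf libraries held 2.11, 0.322 and 0.59 CPM, a mean at least 4.47-fold above the floor of 3 reads (adjusted p = 0.0334). That call was lost under 6 of 16 alternatives, among them each one that left out a control. No control of the knockout table had a count, and Braf held 0.64, 3.42, 3.87, 2.23 and 6.0 nCPM (adjusted p = 4.07e-05). Ugt2b38 fell in the transgene table, from 10.9, 14.4 and 13.3 CPM to 4.57, 0.805 and 1.99 CPM. It was spread over 29.7, 2.3, 49.1, 325 and 1.55 nCPM in Braf against 6.19 to 34.6 nCPM (median 15.8) in control in the knockout table and was not called (0.45 ± 1.26, log2 ± SE, adjusted p = 0.775). Without Braf 7, which had the highest value, its change was -0.54 (adjusted p = 0.699).

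Carboxylesterases fell almost throughout. All 15 members lie on chromosome 8, and Ces1 and Ces2 genes are close paralogs, so that reads may be shared among them. In Braf adenomas 10 of 11 tested members fell in the transgene table and 9 of 13 in the knockout table, and none rose. Ces2e had the highest level per kb of exon of all members in control, 477 CPM per kb in the transgene table and 509 nCPM per kb in the knockout table. Its values were 1413, 1448 and 999 CPM in control and 118, 97.4 and 12.2 CPM in Braf, or -4.56 ± 0.76 (log2 ± SE, adjusted p = 0.00168). Controls of the knockout table held 1050.5 to 1677 nCPM (median 1365) and Braf 232, 26.2, 87.9, 417 and 15 nCPM, or -4.04 ± 0.88 (log2 ± SE, adjusted p = 0.00107). No Braf library reached a control, but those of the knockout table differed among themselves over a wide range. Ces2 enzymes hydrolyse prodrugs and acylglycerols in the gut.

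Ces2c and Ces2a followed in level. Ces2c measured 583, 821 and 290.2 CPM in control and 88.8, 88.7 and 41.9 CPM in Braf (-2.89 ± 0.47, log2 ± SE, adjusted p = 0.00108). Braf of the knockout table held 125, 47.3, 208, 917 and 26.6 nCPM, with Braf 7 above all 6 controls (216 to 637 nCPM, median 392), and the change was not called (-1.63 ± 0.83, log2 ± SE, adjusted p = 0.1). Ces2a fell in both tables, with 443, 903 and 179 CPM in control against 37.5, 78.8 and 28.9 CPM in Braf, and 214 to 566 nCPM (median 462) against 43.9, 30.9, 54, 330.1 and 16.5 nCPM. In the first table the groups of Ces2a stood apart, and in the second Braf 7 lay within the control range. Of the Ces1 genes, which act on cholesteryl and triglyceride esters in liver, Ces1e fell from 52.1, 57.2 and 55.1 CPM to 2.46, 0.725 and 1.69 CPM (-4.47 ± 0.33, log2 ± SE, adjusted p = 2.19e-06). Ces1f fell from 219, 262 and 236 CPM to 24.2, 5.64 and 15.2 CPM. Ces1d held 23.5, 115 and 11.1 CPM in control and 2.67, 0.483 and 0.737 CPM in Braf, apart even though control 2 was far above the other controls. In the knockout table Ces1d, Ces1e, Ces1f and Ces1g fell with log2 changes of -3.65, -3.48, -2.79 and -3.60 and no overlap. Ces2b, Ces2g and Ces3a were not called there (-0.35 ± 0.84, log2 ± SE, adjusted p = 0.731 for Ces2b), and Braf 7 was the highest Braf library for each.

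The 250 bases before the start of Ces1e (chr8:93229620-93229869, minus strand) are printed because the gene fell far in both tables and its window holds a CDX site, TTTATG, in capitals. CDX factors bind such sites in intestinal genes. Sequences are from RefSeq on GRCm38.p6, read 5′ to 3′ on the strand of the gene.
Ces1e: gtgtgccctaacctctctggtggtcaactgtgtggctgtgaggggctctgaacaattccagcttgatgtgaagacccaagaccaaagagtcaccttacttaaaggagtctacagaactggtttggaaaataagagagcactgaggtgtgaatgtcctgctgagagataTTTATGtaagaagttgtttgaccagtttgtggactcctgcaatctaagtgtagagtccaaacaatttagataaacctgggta
The site begins 82 bases before the start. Of 58 members with a promoter window of 300 bases (250 before and 50 after the start) 15.5% held this site on either strand, and 13.6% of all 27025 genes did. The HNF4 core CAAAGTCCA was in 1.72% of members and 0.555% of genes. A match is a description of letters and shows no binding.

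**Figure D2:**
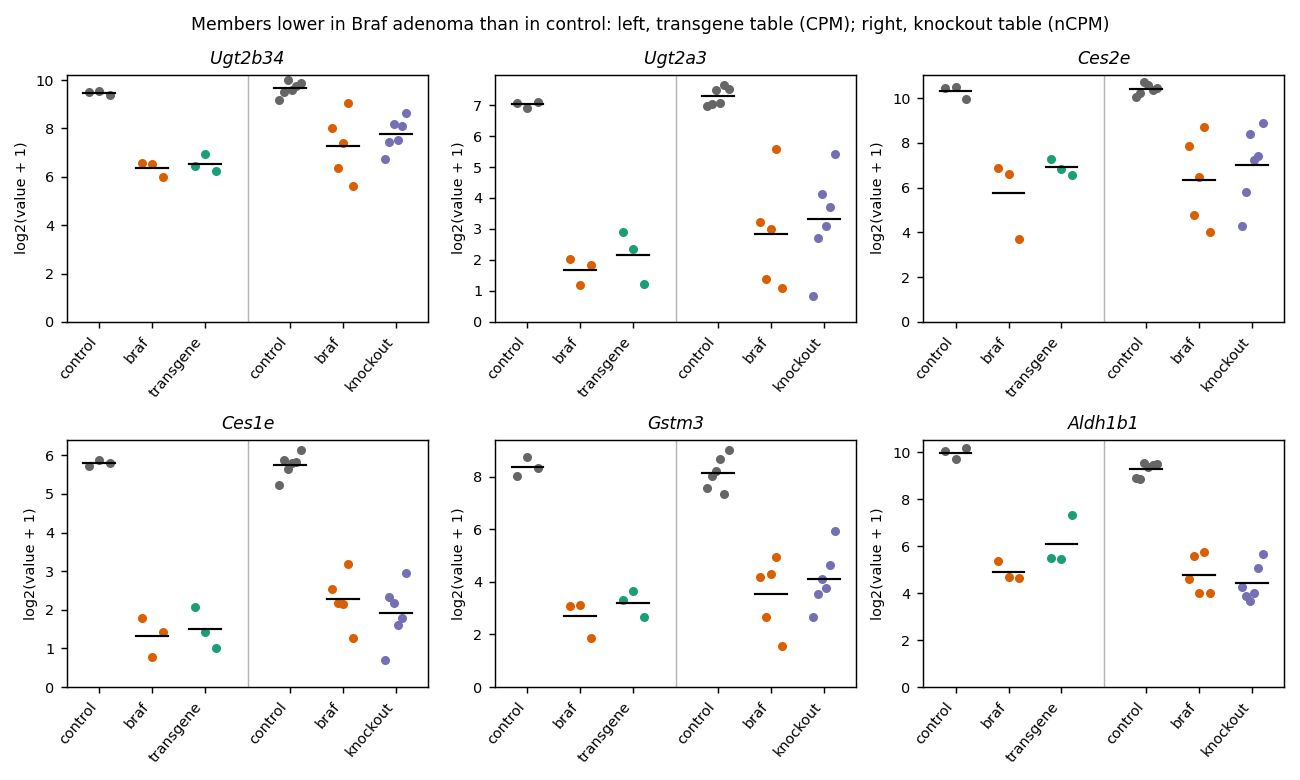
Each point is a library on log2(value + 1), with CPM left and nCPM right of the grey line and black bars at group means. For Ugt2a3, Gstm3 and Aldh1b1 no adenoma library reaches a control in either table. Braf and knockout libraries of the knockout table spread over several log2 units for Ugt2a3 and Ces2e, and less for Aldh1b1.

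Sulfotransferases were split. In Braf adenomas 3 of 8 fell and 1 rose in the transgene table, and 2 of 7 fell and 2 rose in the knockout table. Sult1b1, which sulfates thyroid hormones and phenols, measured 299, 239 and 281 CPM in control and 48, 44.9 and 28.7 CPM in Braf (-2.75 ± 0.42, log2 ± SE, adjusted p = 7.15e-04). The other table held 306 to 547 nCPM (median 413) against 152, 33.9, 90.6, 271 and 22.6 nCPM (-2.42 ± 0.64, log2 ± SE, adjusted p = 0.00417). Sult2b1, which sulfates cholesterol and other sterols, went from 187, 183 and 149 CPM to 26.4, 21.2 and 23.7 CPM (-2.81 ± 0.16, log2 ± SE, adjusted p = 5.36e-07), with 187 to 219 nCPM (median 215) against 64.3, 29.2, 53.8, 124 and 19 nCPM in the other table. Both genes were apart from control in every Braf library. Sult1d1 fell in the transgene table, from 126, 110.1 and 177 CPM to 31.8, 25.7 and 24.6 CPM. Its 5 Braf values in the knockout table, 148, 63, 78.2, 419 and 26.6 nCPM, reached from below to above the controls (168 to 315 nCPM, median 235), and the change was not called. Sult6b2 was as scattered there, with 566, 67.6, 393, 1791 and 85.8 nCPM in Braf against 156 to 461 nCPM (median 296) in control. In the transgene table Sult6b2 held 255, 551 and 228 CPM in control and 137, 72.2 and 12.6 CPM in Braf, which did not overlap, but it was called in neither table (-2.62 ± 1.47, log2 ± SE, adjusted p = 0.176 in the transgene table).

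Sult4a1, a member expressed mainly in brain whose substrates are little known, rose in every adenoma group. Controls held 0, 0.234 and 0.152 CPM and Braf libraries 5.62, 13.8 and 9.8 CPM (3.18 ± 0.46, log2 ± SE, adjusted p = 2.44e-04). Controls of the knockout table had no count of it, and Braf held 5.0, 6.42, 9.56, 2.07 and 10.3 nCPM (adjusted p = 1.89e-06). No library of the groups overlapped. Sult1c2, a sulfotransferase of stomach and kidney, rose in the knockout table from 5.37 to 9.7 nCPM (median 6.47) to 24.4, 16, 58.3, 39.1 and 20.1 nCPM (1.94 ± 0.44, log2 ± SE, adjusted p = 9.26e-04). In the transgene table Sult1c2 held 7.29, 12.7 and 7.5 CPM in control and 21.5, 8.05 and 21.5 CPM in Braf, which overlapped (0.75 ± 0.60, log2 ± SE, adjusted p = 0.325). The summed level of 8 markers of gastric epithelium was 57.0 to 126 nCPM in control and 2638 to 24880.0 nCPM in Braf of the knockout table, and 30.0 to 449 CPM against 1902 to 7791 CPM in the transgene table. Of the markers tested, 7 of 8 and 4 of 7 were higher in Braf, none was without a read throughout a group, and their part in the values of Sult1c2 was not tested.

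Glutathione transferases went both ways. In Braf adenomas 9 of 18 fell and 4 rose in the transgene table, and 9 fell and 5 rose in the knockout table. The summed level of the class was 1748 to 2549 CPM in control and 1395 to 2265 CPM in Braf of the transgene table, where the ranges overlapped. The sum in the knockout table was 1000.1 to 2004 nCPM in control and 1854 to 3795 nCPM in Braf. Most of those that fell were mu genes. Gstm3, with 258 CPM per kb the highest glutathione transferase per length in control, showed the largest fall of all members. It went from 261, 431 and 324 CPM to 7.38, 7.73 and 2.65 CPM (-5.69 ± 0.37, log2 ± SE, adjusted p = 2.06e-06), and from 162 to 519 nCPM (median 278) to 17.1, 5.34, 18.5, 29.4 and 1.99 nCPM (-4.61 ± 0.62, log2 ± SE, adjusted p = 1.23e-05). No Braf library came near a control. Of the other 6 Gstm genes, which lie with it within 149 kb on chromosome 3 and are close paralogs, Gstm1, Gstm2, Gstm4, Gstm6 and Gstm7 fell in both tables and Gstm5 did not. Gstm6 held 80.4, 92.7 and 68.6 CPM in control and 10.3, 8.86 and 8.25 CPM in Braf. Gstt1 fell in both tables (-2.52 and -1.81 on the log2 scale), while Gstt2 was called in neither (-0.28 and -0.05). The calls of Gstm1 and of Gstk1, a peroxisomal and mitochondrial enzyme, in the knockout table were each lost under 8 of 21 alternatives.

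Gsta3, Gsta4, Gsto1 and Gsto2 rose in both tables. Gsta4, which conjugates 4-hydroxynonenal, a product of lipid peroxidation, measured 182, 321 and 196 CPM in control and 527, 416 and 779 CPM in Braf (1.30 ± 0.31, log2 ± SE, adjusted p = 0.00639). Values in the knockout table were 84.9 to 258 nCPM (median 174) in control and 663, 776, 1207, 1664 and 659.7 nCPM in Braf (2.52 ± 0.35, log2 ± SE, adjusted p = 6.46e-06). Gsta3, which also isomerises steroids, rose from 9.08, 16.2 and 7.04 CPM to 200.3, 60.5 and 146 CPM (3.45 ± 0.42, log2 ± SE, adjusted p = 1.61e-04). The knockout table gave 1.78 to 16.4 nCPM (median 8.21) and 47.5, 30.1, 97.9, 33.5 and 154 nCPM (2.80 ± 0.53, log2 ± SE, adjusted p = 2.60e-04). Both genes were apart from control in every Braf library of both tables. Of the other alpha genes, Gsta2 fell in the transgene table (-1.96 ± 0.42, log2 ± SE, adjusted p = 0.00311), and Gsta1 was not called there (235, 383 and 119 CPM against 125, 60.9 and 179.8 CPM). Gsta1 ranged in the knockout table over 210.1, 176, 276, 762 and 6.63 nCPM in Braf and 7.14 to 169.5 nCPM (median 28.8) in control (1.88 ± 1.08, log2 ± SE, adjusted p = 0.143).

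Gsto1, which reduces glutathione mixed disulfides, measured 443, 419.7 and 474 CPM in control and 718, 617 and 868 CPM in Braf (0.71 ± 0.18, log2 ± SE, adjusted p = 0.00727), and 308 to 487 nCPM (median 409.7) against 613, 534, 731, 915 and 862 nCPM (0.81 ± 0.20, log2 ± SE, adjusted p = 0.00186). The groups did not overlap, but the rise was no longer called in either table after TMM or median-ratio scaling, and the change was 0.29 at the lowest in the knockout table. Gsto2, its neighbour, which reduces dehydroascorbate, rose at a low level, from 0.215, 0.778 and 0.227 CPM to 1.69, 1.77 and 2.43 CPM (1.09 ± 0.26, log2 ± SE, adjusted p = 0.00489).

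**Figure D3:**
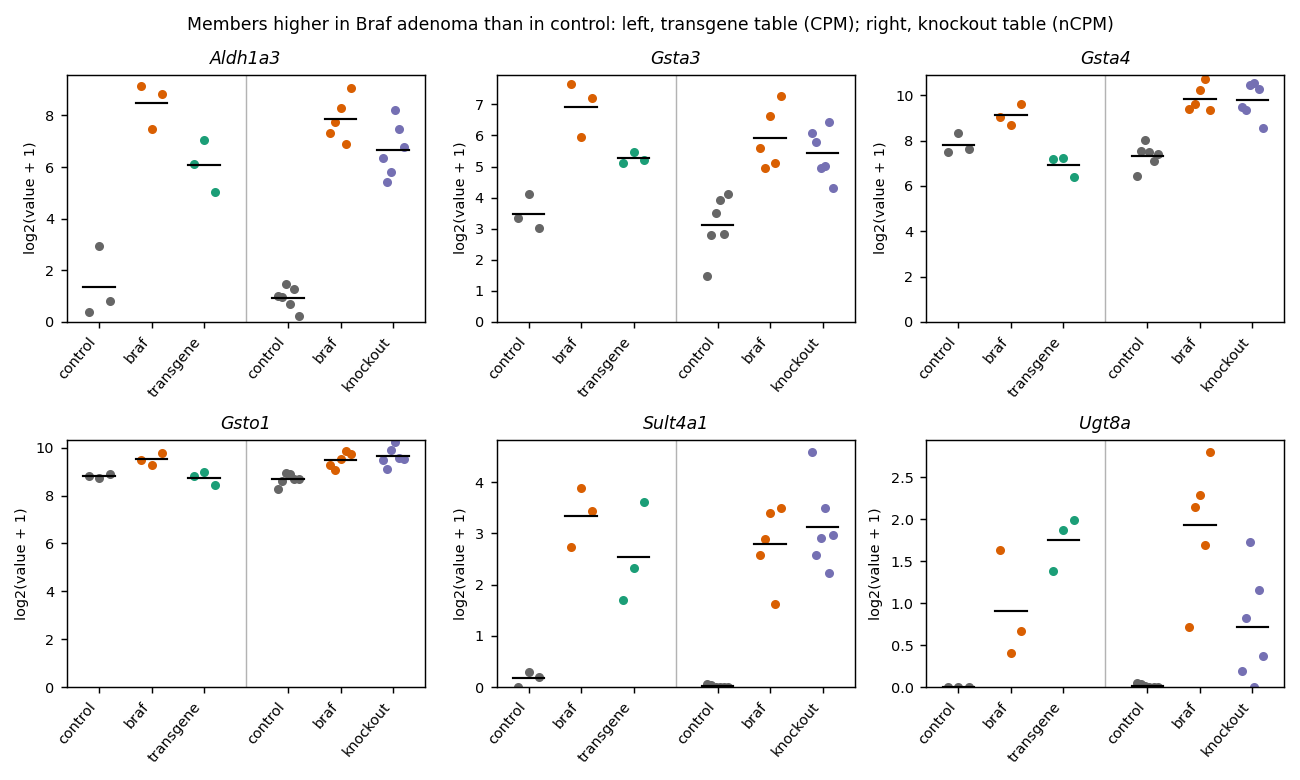
Points are libraries on log2(value + 1), CPM left and nCPM right of the grey line, with black bars at group means. Braf libraries lie above all controls in both tables for these 6 genes, and the transgene libraries of Gsta4 lie below all controls.

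For Gsta3, on chromosome 1 and apart from the alpha genes of chromosome 9, the 250 bases before the start (chr1:21240335-21240584, plus strand) are printed because the gene rose in each adenoma group. For Gstm5, the mu gene that was higher in transgene libraries than in control, they are printed (chr3:107895604-107895853, plus strand) because the window holds an AP-1 site. Against Braf, Gstm6 and Gstm7 were called higher as well as Gstm5 (log2 changes 0.94, 1.51 and 2.48). The call of Gstm7 was lost under 8 of 17 alternatives. Capitals mark the antioxidant response element TGACNNNGC in Gsta3, and the CDX site, the AP-1 site TGANTCA and the antioxidant response element in Gstm5, on either strand, and none of these matches overlaps another.
Gsta3: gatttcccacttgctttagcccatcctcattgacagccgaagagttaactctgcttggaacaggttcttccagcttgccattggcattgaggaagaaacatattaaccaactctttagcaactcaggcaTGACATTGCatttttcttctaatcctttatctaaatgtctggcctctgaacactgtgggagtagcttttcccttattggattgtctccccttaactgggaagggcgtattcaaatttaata
Gstm5: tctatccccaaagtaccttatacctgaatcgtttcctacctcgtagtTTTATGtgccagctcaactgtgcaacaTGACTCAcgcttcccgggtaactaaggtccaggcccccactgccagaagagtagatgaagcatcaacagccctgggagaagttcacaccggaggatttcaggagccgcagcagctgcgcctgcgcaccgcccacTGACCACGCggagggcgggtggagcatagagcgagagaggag
In Gsta3 the response element begins 121 bases before the start, and in Gstm5 the CDX site begins 203, the AP-1 site 176 and the response element 42 bases before it. The AP-1 site was in the windows of 10.3% of members and 8.97% of genes, and the antioxidant response element in 8.62% of members and 14% of genes. Ugt1a6a, Ugt2b35, Ugt2b38, Sult1b1 and Sult2b1 also held an AP-1 site. All of them were lower in transgene libraries than in control (log2 changes -2.90, -2.83, -3.65, -2.61 and -1.88). Against Braf, Sult2b1 was higher, Ugt2b38 was lower and the others were not called. The part of these sites in the changes was not tested.

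Aldehyde dehydrogenases fell as a rule, with a few large exceptions. In Braf adenomas 11 of 18 fell and 2 rose in the transgene table, and 11 of 17 fell and 4 rose in the knockout table. Aldh1b1, a mitochondrial enzyme that oxidises acetaldehyde and retinal, had the highest level per kb of the class in control, 443 CPM per kb. It measured 1045, 837 and 1169 CPM in control and 40.7, 24.6 and 23.8 CPM in Braf (-5.08 ± 0.47, log2 ± SE, adjusted p = 4.70e-05). Controls of the knockout table held 465 to 740.1 nCPM (median 682) and Braf 23.4, 46.7, 15.3, 52.3 and 15 nCPM (-4.48 ± 0.37, log2 ± SE, adjusted p = 2.22e-08). Every control lay far above every Braf library. Aldh9a1, which acts in carnitine and GABA synthesis, fell from 456, 381 and 459 CPM to 88.2, 110.4 and 58.4 CPM (-2.36 ± 0.21, log2 ± SE, adjusted p = 7.60e-06). Aldh4a1 of proline breakdown, Aldh18a1 of proline synthesis and Aldh1l1 of the folate pathway also fell in both tables, with log2 changes of -3.15, -2.25 and -2.98 in the transgene table. Aldh3a2, which oxidises long-chain fatty aldehydes, held 206 to 353 nCPM (median 266) in control and 130.4, 99.5, 176, 295 and 114 nCPM in Braf of the knockout table. The libraries overlapped, and the call of Aldh3a2 there (-0.84 ± 0.32, log2 ± SE, adjusted p = 0.0269) was lost when any of 5 libraries was left out.

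Aldh1a3, one of the enzymes that make retinoic acid, showed the largest rise of all members. Controls held 0.286, 6.62 and 0.758 CPM, and Braf libraries 563, 178 and 457 CPM (7.12 ± 0.80, log2 ± SE, adjusted p = 2.07e-04). In the knockout table it went from 0.158 to 1.8 nCPM (median 0.988) to 157, 214, 315, 118 and 537 nCPM (6.93 ± 0.46, log2 ± SE, adjusted p = 2.18e-09). The lowest Braf library was above the highest control by more than an order of magnitude in both tables. Aldh1a7, a close paralog of the omitted Aldh1a1, fell from 39, 39.6 and 15.2 CPM to 2.39, 0.886 and 0.737 CPM (-3.74 ± 0.40, log2 ± SE, adjusted p = 3.26e-05). Aldh7a1, which degrades lysine and protects from osmotic stress, rose from 4.58, 7.01 and 9.54 CPM to 24.4, 21.9 and 25.9 CPM (1.68 ± 0.25, log2 ± SE, adjusted p = 3.00e-04), and from 3.22 to 6.71 nCPM (median 5.24) to 10, 18, 15.2, 9.54 and 18 nCPM (1.27 ± 0.23, log2 ± SE, adjusted p = 9.79e-05). Aldh2, the main mitochondrial enzyme of acetaldehyde oxidation, kept a level of the same order in all groups. It held 340.2, 402 and 306 CPM in control and 680.1, 682 and 338 CPM in Braf (0.63 ± 0.25, log2 ± SE, adjusted p = 0.0556), and 181 to 312 nCPM (median 225) against 358, 282, 452, 373 and 339 nCPM (0.60 ± 0.19, log2 ± SE, adjusted p = 0.00944). The call of the second table was lost after TMM and after median-ratio scaling, and the change of Aldh2 was 0.08 at the lowest.

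In the adenomas with the Fosl1 transgene, compared with the same controls, 43 members were lower and 8 higher (77.3% called, beside 64.2% of all genes, with 17.5% lower and 46.7% higher). The median change was -1.79 for the members and 0.47 for all genes, and after TMM scaling 50 members were lower and 8 higher, with 28.9% and 31.3% of all genes. The groups did not overlap for 56 members, beside 70.7% of all genes. All 11 tested carboxylesterases fell, as did 10 of 11 UDP-glucuronosyltransferases. Because both comparisons use the same 3 controls, their values are set side by side. Ugt2a3 changed by -4.87 in transgene and -5.34 in Braf, Gstm3 by -5.16 and -5.69, Ces1f by -4.47 and -4.10, and Ugt2b5 by -4.46 and -4.11. Aldh1a3 was higher than control at 68.8, 131 and 32 CPM (4.71 ± 0.80, log2 ± SE, adjusted p = 0.00136), and so was Sult4a1 at 2.26, 3.99 and 11.2 CPM (2.38 ± 0.46, log2 ± SE, adjusted p = 0.00115).

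Directly between transgene and Braf adenomas 10 members were higher and 9 lower in the transgene libraries (28.8% called, beside 19.2% of all genes, with 14.5% higher and 4.72% lower). The members' median change was 0.06 and that of all genes 0.17. For 26 members the groups did not overlap, beside 38.3% of all genes. None of the 11 carboxylesterases and 1 of the 11 UDP-glucuronosyltransferases was called, Ugt2b38 (-1.50 ± 0.37, log2 ± SE, adjusted p = 0.0179). By contrast 7 of 18 glutathione transferases, 7 of 18 aldehyde dehydrogenases and 4 of 8 sulfotransferases were. After TMM scaling 7 were higher and 9 lower, with 11% and 8.25% of all genes. Of the 19 calls, 8 held under every alternative that tested them. They were Aldh1a2, Aldh1l2, Aldh5a1, Gstm5, Gstm6 and Sult2b1, which were higher, and Gsta4 and Gstt3, which were lower. Aldh1l2 was not tested with the filter at 5 CPM. With 3 libraries a group, leaving out transgene 2 or transgene 3 left 10 calls each.

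Gsta4 measured 144, 150.4 and 83.6 CPM in the transgene libraries, against 527, 416 and 779 CPM in Braf and 182, 321 and 196 CPM in control. Every transgene library lay below every control and every Braf library. The change was -2.18 ± 0.31 (log2 ± SE, adjusted p = 0.00211) against Braf and -0.88 ± 0.31 (log2 ± SE, adjusted p = 0.0308) against control. Gsta4 was the only member with opposite calls against control in the 2 adenoma groups. Its call in the transgene libraries against control, and with it the opposite direction, was lost without control 2, without transgene 3 and with the replicate number as a block (adjusted p up to 0.113). Gsta3 stood between control and Braf at 33.8, 42.9 and 35.9 CPM (-1.67 ± 0.42, log2 ± SE, adjusted p = 0.0249 against Braf), a call lost without Braf 3, without each transgene library in turn and with the replicate number as a block. Gsto1 was at 448, 512 and 345 CPM, lower than Braf (-0.76 ± 0.18, log2 ± SE, adjusted p = 0.0151), lost without transgene 3. Gstt3 held 14.6, 10.2 and 12.6 CPM against 23.7, 21.1 and 22.5 CPM in Braf (-0.81 ± 0.17, log2 ± SE, adjusted p = 0.00971). Sult1c2 and Sult1d1 were lower than in Braf as well (-2.15 and -1.16). Their transgene values were 6.39, 4.07 and 0.404 CPM and 18.5, 12.1 and 6.86 CPM, with no overlap with Braf. The call of Sult1c2 was lost under 8 of 17 alternatives and that of Sult1d1 under 5, for both of them without Braf 1, transgene 2 or transgene 3. Aldh1a3 was below all 3 Braf libraries without being called (-2.41 ± 0.80, log2 ± SE, adjusted p = 0.0749).

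Aldh1a2, another retinoic acid enzyme, was higher in the transgene libraries, at 8.98, 19.6 and 17.4 CPM, than in Braf (2.74, 0.242 and 1.62 CPM) and control (1.22, 1.25 and 0.833 CPM). No transgene library overlapped with the others, and the change against Braf was 2.76 ± 0.41 (log2 ± SE, adjusted p = 0.00203). Gstm5 held 88.1, 136 and 75.7 CPM, against 27.6, 10.3 and 15.8 CPM in Braf and 11.7, 12.1 and 14.2 CPM in control (2.48 ± 0.32, log2 ± SE, adjusted p = 0.00128 against Braf). Beside these values, the summed level of 7 fibroblast markers was 657 to 1263 CPM in transgene, 21.7 to 186 CPM in Braf and 7.80 to 25.3 CPM in control libraries. All 7 were called higher in transgene than in Braf, as were all 6 endothelial markers, and none was without a read throughout a group. Their part in the rise of Aldh1a2 and Gstm5 was not tested. Aldh1a2 was also higher in Braf than in control of the knockout table, with 4.37, 5.9, 8.94, 3.66 and 1.56 nCPM against 0.16 to 1.77 nCPM (median 0.615), a change of 1.66 ± 0.32 (log2 ± SE, adjusted p = 1.84e-04). The Braf and control ranges of Aldh1a2 overlapped there, and the fibroblast sum was 77.2 to 530.2 nCPM against 7.47 to 17.2 nCPM.

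Aldh5a1, which clears succinic semialdehyde, was at 24.3, 20.5 and 24.8 CPM, overlapping with control (20.2, 19.6 and 23.8 CPM) and above every Braf library (11.7, 9.58 and 11.2 CPM). Its change against Braf was 1.03 ± 0.17 (log2 ± SE, adjusted p = 0.00301). Aldh1l2, the mitochondrial folate enzyme, held 3.04, 3.18 and 3.5 CPM, above the other groups (1.18 ± 0.21, log2 ± SE, adjusted p = 0.00435 against Braf). Its values were 1.12, 0.564 and 0.958 CPM in Braf and 0.572, 0.389 and 0.303 CPM in control. Aldh1l2 thus passed the filter of 1 CPM in 3 libraries only through the transgene group, so its call is not independent of the filter. Sult2b1 and Gstm6 stayed below control but above Braf, with 53.3, 47.6 and 38.6 CPM and 21.9, 17.2 and 16.6 CPM (0.93 and 0.94 against Braf). Aldh3b1, which oxidises lipid-derived aldehydes, was likewise between the groups at 21.6, 18.2 and 12.8 CPM (1.36 ± 0.38, log2 ± SE, adjusted p = 0.0316 against Braf), a call lost after TMM scaling and under 7 other alternatives. For Sult2b1, Gstm6 and Aldh3b1 no transgene library overlapped with Braf. Of 15 enterocyte markers 5 were higher in transgene than in Braf and none lower.

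**Figure D4:**
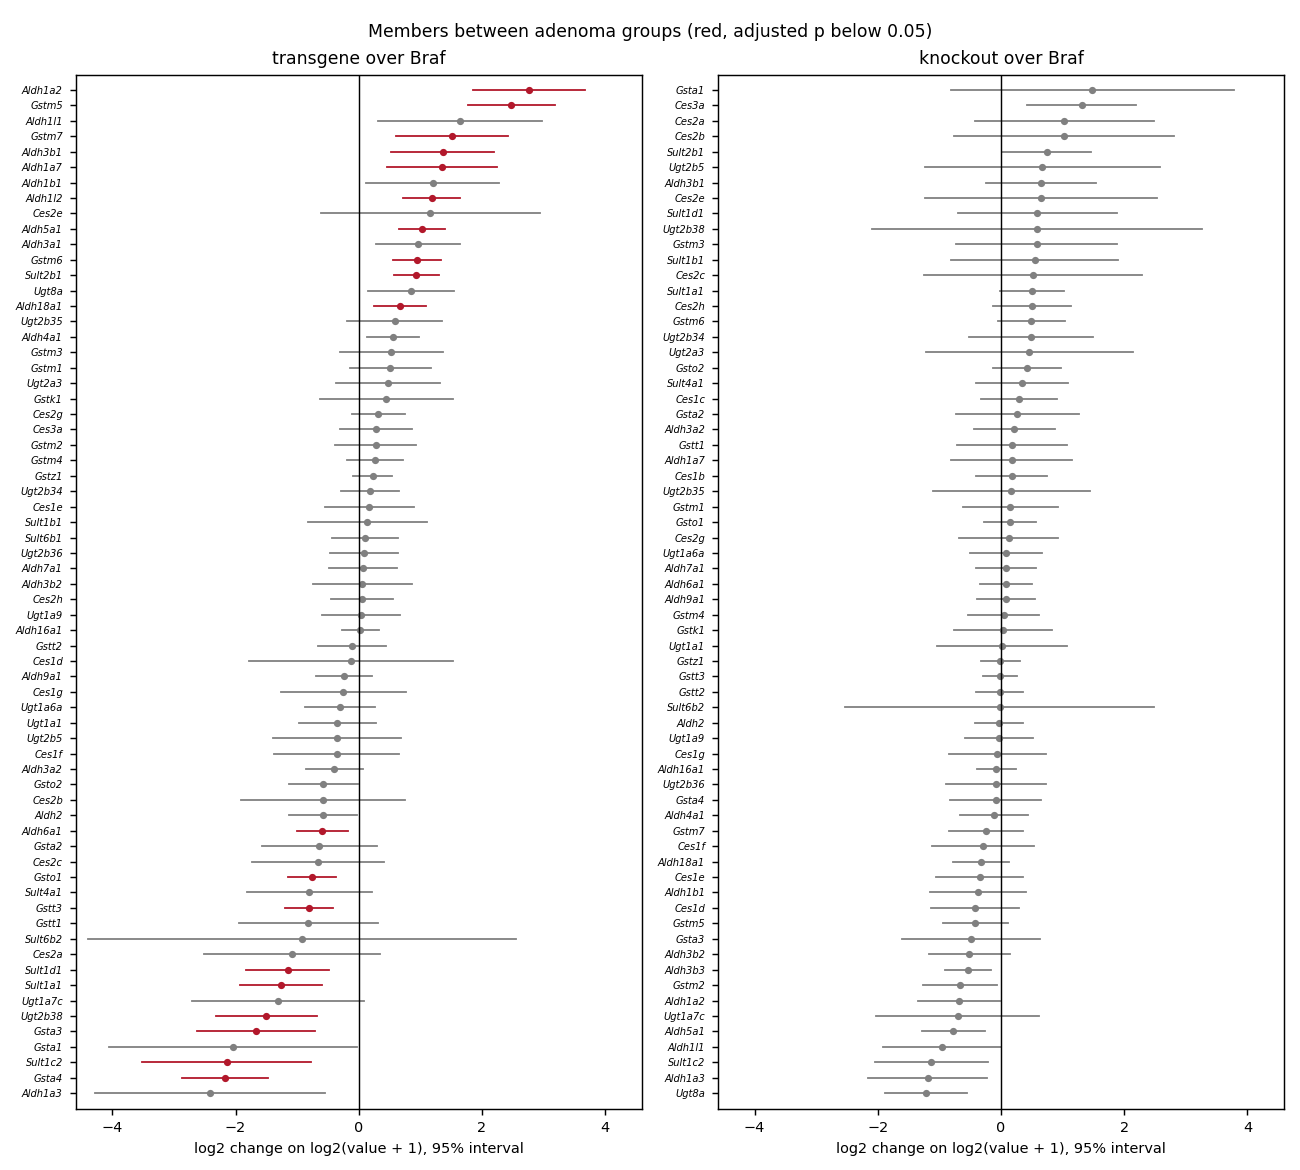
Points are log2 changes with 95% intervals for the 66 tested members, transgene over Braf left and knockout over Braf right, in red where the adjusted p is below 0.05. The left panel has 19 red members with Aldh1a2 and Gstm5 at the top, and the right panel has none.

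Between Fosl1 knockout and Braf adenomas no member was called by limma. Of 66 tested, 0 passed (0% called, beside 0.419% of all genes, with 0.0473% higher and 0.371% lower), and no member had groups apart (beside 1.22% of all genes). An unadjusted p below 0.05 was found for 10, 8 lower and 2 higher. The share of all genes at that unadjusted threshold was not computed, so nothing is read from this count. The log2 changes reached from -1.22 to 1.48. The 95% intervals reached 0.74 to either side of the change at the median and 0.28 to 2.68 over the members. For 27 members the interval lay within 1 of 0 on log2(value + 1), which does not exclude a 2-fold change of low genes. Ugt8a had the lowest adjusted p. Knockout libraries held 0 to 2.31 nCPM (median 0.532) and Braf libraries 0.64, 3.42, 3.87, 2.23 and 6.0 nCPM, a difference of -1.22 (95% interval -1.88 to -0.55, adjusted p = 0.085). It passed without Braf 4 (adjusted p = 0.0154) and without knockout 3 (adjusted p = 0.0409). Ces3a, at 1.97 to 10.8 nCPM (median 6.31) in knockout and 1.61, 0.342, 1.23, 8.74 and 0.536 nCPM in Braf, differed by 1.31 (95% interval 0.42 to 2.20, adjusted p = 0.169), and by 1.79 without Braf 7 (adjusted p = 0.0127).

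The genes that differed most from control in the adenomas had these intervals for knockout over Braf. Aldh1a3 was at 42.3 to 295 nCPM (median 94.2) in the knockout libraries, with a difference from Braf of -1.19 (95% interval -2.16 to -0.22, adjusted p = 0.25). The ranges of the 2 groups overlapped, and all 6 knockout libraries stayed above all controls. Gsta4 held 374 to 1474 nCPM (median 978), with a difference of -0.08 (95% interval -0.82 to 0.65, adjusted p = 0.923), and Gsta3 18.6 to 85.9 nCPM (median 42.7), with -0.49 (95% interval -1.60 to 0.63, adjusted p = 0.683). Sult4a1 differed by 0.33 (95% interval -0.41 to 1.08, adjusted p = 0.679). Among the genes that had fallen, Aldh1b1 differed by -0.38 (95% interval -1.16 to 0.41, adjusted p = 0.653) with a knockout range of 11.5 to 49.2 nCPM (median 16.5). Wider intervals were found for Ugt2a3, 0.46 (95% interval -1.22 to 2.14, adjusted p = 0.806), Ces2e, 0.65 (95% interval -1.23 to 2.52, adjusted p = 0.749), and Ces2c, 0.52 (95% interval -1.25 to 2.29, adjusted p = 0.79). Knockout libraries held 0.78 to 41.7 nCPM (median 9.79) for Ugt2a3 and 18.7 to 469 nCPM (median 160.4) for Ces2e. Gstt3 had the narrowest interval, -0.01 (95% interval -0.29 to 0.27, adjusted p = 0.974), at 26.2 to 35.4 nCPM (median 28.5) in knockout and 27.5, 31.9, 30.2, 32.1 and 25.8 nCPM in Braf.

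Against the 6 controls, 40 members were lower and 11 higher in the knockout adenomas (77.3% called, beside 56.8% of all genes, with 19.4% lower and 37.4% higher). This comparison shares its controls with that of Braf in the same table. After TMM scaling 42 were lower and 9 higher, with 30% and 28.1% of all genes. For 38 members the groups did not overlap, beside 33.2% of all genes. Aldh1a3 changed by 5.74 in knockout and 6.93 in Braf, Gsta4 by 2.44 and 2.52, Aldh1b1 by -4.86 and -4.48, and Ces1d by -4.07 and -3.65. Gsta1 was called higher in knockout, at 102 to 1015 nCPM (median 454) against the control values given above, although the libraries overlapped (3.36 ± 1.03, log2 ± SE, adjusted p = 0.0119). With the replicate numbers as a block that call of Gsta1 was lost (adjusted p = 0.187). In the transgene libraries Gsta1 was called lower than the controls of that table, at 70.3, 36 and 6.6 CPM (-3.03 on the log2 scale, adjusted p = 0.0163 by limma). That call was lost with the 2 compared groups alone (adjusted p = 0.0539).

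Levels of the members varied with the library within the adenoma groups of the knockout table. Braf 7 was the highest of the 5 Braf libraries for 38 of 66 members, among them 10 of 11 UDP-glucuronosyltransferases and 11 of 13 carboxylesterases, but 4 of 17 aldehyde dehydrogenases. Its enterocyte marker sum was 24091 nCPM, against 1367 to 10162 nCPM in the other Braf libraries. Its carboxylesterases summed to 1919.6 nCPM, against 103 to 487 nCPM in the others. In the knockout group library 1 was lowest for 38 of 66 members, with the lowest enterocyte sum (2641 nCPM), and libraries 3 and 7 had the highest sums (21094 and 21842 nCPM) and were highest for 20 and 27 members. How often each library was highest or lowest was not counted over all genes, and the part of enterocyte content in these values was not tested. Without Braf 7, 44 members were lower and 11 higher in Braf than in control of that table.

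**Figure D5:**
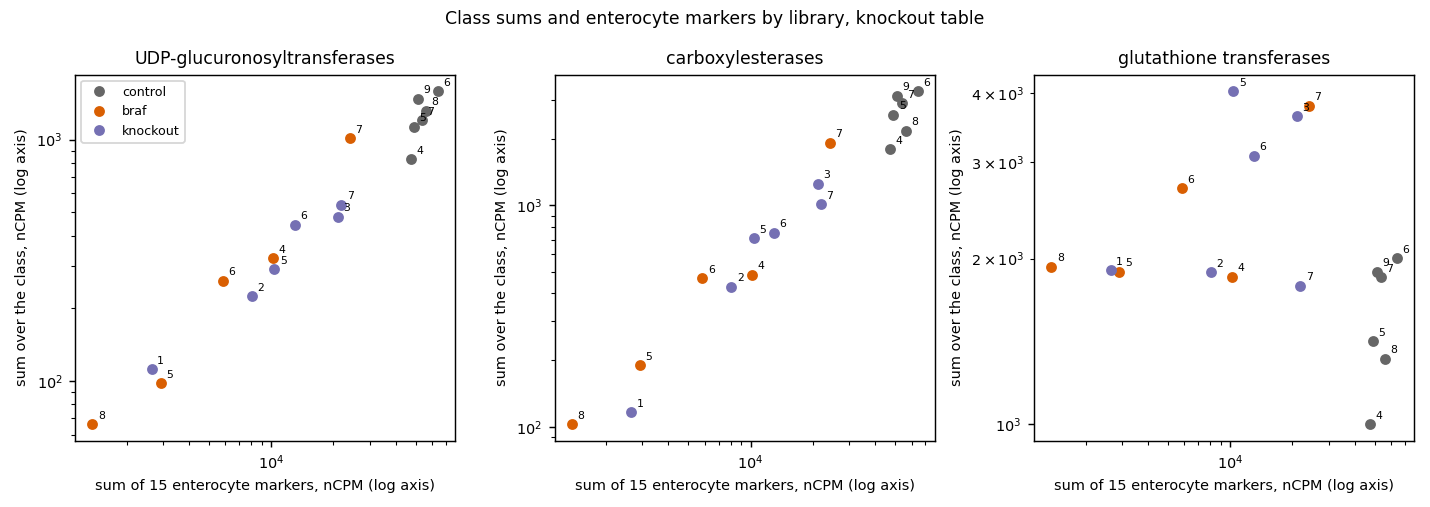
Each numbered point is a library of the knockout table, with the summed enterocyte markers on the horizontal and the summed class on the vertical axis, both logarithmic and in nCPM. UDP-glucuronosyltransferase and carboxylesterase sums are high where the marker sum is high, with Braf 7 nearest to the controls, while the glutathione transferase sums of adenomas lie at 1787 nCPM or more.

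Genes that supply these enzymes changed less uniformly. Their counts stand beside the shares of all genes given above, 33.1% higher and 18% lower in the transgene table and 45.3% and 16.2% in the knockout table, and the shares of higher genes in the supply lists lie near these. Of 5 genes of UDP-glucuronic acid supply, 2 rose and 2 fell in Braf of each table. Ugdh, which makes UDP-glucuronic acid, changed by -1.31 (adjusted p = 4.72e-04) and -0.83 (adjusted p = 0.0319) on the log2 scale, and Gusb, the lysosomal beta-glucuronidase that removes glucuronic acid, rose by 2.33 (adjusted p = 2.52e-07) and 2.50 (adjusted p = 6.53e-08). Of 6 genes of sulfate donor supply, 2 rose and 2 fell in each table. Bpnt1, which clears the by-product of sulfation, changed by -2.30 (adjusted p = 2.42e-05) and -1.55 (adjusted p = 0.00151). Of the glutathione supply genes 4 of 10 rose and 1 fell in the transgene table, and 5 of 9 rose and 2 fell in the knockout table. Slc7a11, the cystine importer, rose most, by 6.40 (adjusted p = 2.90e-07) and 5.78 (adjusted p = 1.61e-09), and was lower in transgene than in Braf (-3.54, adjusted p = 3.22e-04). Gss, glutathione synthetase, rose by 1.27 (adjusted p = 3.55e-05) and 1.46 (adjusted p = 4.47e-07).

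Among 13 enzymes and transporters known as targets of NRF2, the factor that binds the antioxidant response element, 8 rose and 2 fell in Braf of the transgene table, and 7 rose and 1 fell in the knockout table, where 45.3% of all genes rose. Hmox1, heme oxygenase, rose by 4.37 (adjusted p = 1.18e-04) and 4.62 (adjusted p = 1.06e-07), and Akr1b8, an aldo-keto reductase, by 2.95 (adjusted p = 1.42e-06) and 4.24 (adjusted p = 5.42e-10). Nqo1, a quinone reductase and a standard target, was lower in the transgene table, -1.69 (adjusted p = 1.47e-04), and was not called in the other, -0.51 (adjusted p = 0.062). Of 8 transporters of conjugates and drugs, 4 fell and 2 rose in the transgene table, and 4 fell and 3 rose in the knockout table, beside the same shares of all genes. Abcc2 and Abcg2, of the apical membrane, changed by -2.61 (adjusted p = 0.00109) and -4.62 (adjusted p = 6.58e-07), and Abcc4, of the basolateral membrane in many tissues, rose by 2.72 (adjusted p = 4.41e-04) in the transgene table.

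Most nuclear receptors and intestinal factors on the lists fell. Of 11 nuclear receptors for xenobiotics and lipids, 8 fell and 1 rose in Braf of the transgene table, and 7 fell and 2 rose in the knockout table. Of all genes, 18% fell and 33.1% rose in the transgene table, and 16.2% and 45.3% in the knockout table. Nr1i2 (PXR) and Nr1i3 (CAR), which bind drugs and drive conjugating enzymes, changed by -1.61 (adjusted p = 1.13e-04) and -3.80 (adjusted p = 1.78e-04) in the transgene table and by -1.31 (adjusted p = 7.15e-06) and -2.72 (adjusted p = 3.22e-06) in the knockout table. Pparg rose by 1.87 (adjusted p = 0.00157) and 2.03 (adjusted p = 5.91e-08). Of 12 intestinal transcription factors and regulators 8 fell in each table and none rose. Hnf4g, a factor of enterocyte genes, changed by -4.12 (adjusted p = 2.66e-06) and -3.08 (adjusted p = 4.18e-06). In knockout over Braf none of the 11 receptors and none of the 12 factors was called, where only 0.419% of all genes were called.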

How the data were processed

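RNA-seq of 27 mouse libraries was deposited as 2 gene tables, and 26 libraries were compared here. The remaining library, whose labels disagree on its genotype, was not used. The authors trimmed reads with fastp and aligned them with STAR to GRCm38 and also used limma, per the submitters' processing notes, which give no versions. The counting program and its use of strand are not given in the sources used here. The transgene table holds CPM as deposited, with 12 columns of per-sample values that were not matched to a sample of this series and were left out. All nonzero CPM were whole numbers of reads within 0.02 of a read. The knockout table holds a normalised count signal as deposited, with nearly equal column totals (6284385 to 6319523 normalised counts), so that its depth is unknown. These values were multiplied by 0.159 to the CPM scale (nCPM). In 8 of its libraries small fractions stand in place of zeros, and 1 repeated row was dropped. Ugt8a held such fractions in all 6 controls (0.00318 to 0.0328 nCPM), and Ugt1a9 in knockout 2 and 3 (0.0579 and 0.00794 nCPM). No Braf library held one for a member. This mark of processing therefore cannot be told apart from the difference of Braf and control in that table, and it divides the knockout group.

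The tables were normalised separately, so groups were tested within each table. Genes with at least 1 CPM in 3 libraries, or 1 nCPM in 5, were kept. Members such as Gsto2, Sult4a1 and Ugt8a were below 1 CPM in every control of the transgene table and passed there through adenoma libraries. A 3-group model on log2(value + 1) was fitted with limma 3.58.1 in R 4.3.3 (trended, robust), with p-values adjusted over all genes by the Benjamini-Hochberg method and a threshold of 0.05. The steps were tested on simulated data. Alternatives were other pseudocounts (0.25 and 5), filters, TMM or median-ratio scaling, array weights, the compared groups alone, the replicate number as a block, each library left out, and, on recovered reads, edgeR 4.0.16 and DESeq2 1.42.0. A count of 3 reads in the transgene table corresponded to 0.194 to 0.242 CPM, which covers counting error only. Promoter windows came from RefSeq, where 58 members had one. Values are given for the 4 most extreme called members in each direction, for the most abundant of each class and for members of interest chosen after their values were seen. The members and lists were chosen with earlier results of these data known.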

Additional observations from a re-analysis of the deposited data

Results flagged for a closer look

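In 13 of 198 member groups of the knockout table (6.57%) 1 library stood apart from the rest of its group by Dixon's test, which flags about 5% by chance. Sult6b2 was at 6.81 nCPM in knockout 1 and at 278 to 1479 nCPM in the other knockout libraries. Ces2c was at 25.2 nCPM in the same library and at 169 to 323 nCPM in the others. Ugt1a9 was at 0.476 nCPM in Braf 7, against 0 to 0.113 nCPM, and at 0.444 nCPM in knockout 7, against 0 to 0.0579 nCPM. Both libraries had the highest enterocyte marker sum of their group. Aldh4a1 was at 26.9 nCPM in knockout 7, against 9.82 to 14.3 nCPM. In knockout 2, Aldh5a1 was at 2.82 nCPM (6.50 to 9.87 in the others) and Aldh6a1 at 6.03 nCPM (11.7 to 15.7 in the others). Gstt3 was at 35.4 nCPM in knockout 3, against 26.2 to 29.0 nCPM.

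In Braf 6, Gstm4 was at 12.9 nCPM (8.23 to 9.06 in the others) and Sult1a1 at 3.81 nCPM (1.12 to 1.56 in the others). Among the controls, Gstk1 was at 138 nCPM in control 6 (74.4 to 85.6 in the others), Ces3a at 1.77 nCPM in control 4 (3.68 to 5.00) and Ugt1a1 at 10.4 nCPM in control 5 (16.6 to 21.3).

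Gsta4 was higher than control in Braf and lower than control in transgene libraries of the same table, and the difference between both adenoma groups, tested directly with limma, was -2.18 on the log2 scale. Its call in transgene libraries against control was lost under 3 of 17 alternatives.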

How the results depend on the processing

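Over the alternatives with all libraries, the number of called members was 47 to 56 for Braf against control in the transgene table (51 as reported), 44 to 58 in the knockout table (52), 47 to 58 for transgene against control (51), 42 to 52 for knockout against control (51) and 14 to 22 for transgene against Braf (19), where edgeR on the recovered reads gave 14 and DESeq2 22. Leaving out 1 library gave 50 to 55, 48 to 55, 50 to 56, 49 to 51 and 10 to 18 in the same order, the lowest value of 10 without transgene 2 or transgene 3. With all libraries, the lowest counts against control came from the filter at 5, which left 56 members tested. With 1 library left out, 67 to 70 members were tested in the transgene table and 66 in the knockout table. For knockout against Braf the count stayed at 0 with all libraries and was 0 to 1 with 1 left out. The cause of these shifts was not tested. Of the called members, 49 of 51, 46 of 52, 47 of 51, 42 of 51 and 8 of 19 were called under every alternative that tested them. In knockout against Braf 4 to 14 members had an unadjusted p below 0.05, without a share of all genes to set beside it. No called member changed sign. Of the uncalled log2 changes given for single members, those of 7 members did under at least 1 alternative. For knockout against Braf, Gsta4 was at 0.0818 after TMM scaling, 0.11 after median-ratio scaling, 0.0814 with array weights and 0.0924 without knockout 1 and 2 together, and Gstt3 at 0.15, 0.17 and 0.0032 under the first, second and last of these. With array weights Aldh1b1 was at 0.023 in that comparison, and Gstt2 at 0.14 for Braf against control in the transgene table. With 1 library left out, knockout against Braf ran from -0.24 to 0.16 for Gsta4, -0.066 to 0.019 for Gstt3 and -0.024 to 1.24 for Ces2c. Braf against control in the knockout table then ran from -1.001 to 0.037 for Ces2b, -0.13 to 0.032 for Gstt2 and -0.54 (without Braf 7) to 1.21 (without Braf 8) for Ugt2b38. With the replicate number as a block the counts were 52, 53, 53, 47, 16 and 0. Deviations of libraries with the same number correlated at -0.184 to 0.371, and in no comparison did every pair exceed 0.1. With so few libraries in a group, these correlations cannot decide whether the numbers pair the libraries.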
